A study of Mus musculus with 11 samples.

Results

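The genes described here encode the oxygen-dependent demethylases of chromatin and nucleic acids. They are the JmjC-domain histone demethylases and related JmjC oxygenases, the TET enzymes that oxidise 5-methylcytosine in DNA, and the AlkB family with Fto, which removes methyl groups from DNA or RNA bases. A list of 36 such genes was fixed by name. Their accessible regions were those of the deposited list that overlapped the gene, from 20 kb upstream of it to its end, in mm10 with GENCODE M21 gene models. This gave 194 of the 94963 regions in the whole list, and no region was counted for more than 1 of the 36 genes.

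ATAC-seq, in which the Tn5 transposase cuts and tags open chromatin, had been run on 11 samples of MPC2 cells, a conditionally immortalized mouse mesenchymal line derived from 1 clone. The groups were MSC, the undifferentiated cells, with vehicle (DMSO, n = 3) or 50 uM FG-4592 (Roxadustat, n = 3), and Osteocyte, the cells after 3 weeks in osteogenic medium, with vehicle (n = 2) or 50 uM FG-4592 (n = 3), all treated for 48 hours. The deposited list named no sample and gave each region 1 value. This value was read as a mean over all 11 samples in log2 CPM. Log2 CPM is log2 of counts of Tn5 cuts scaled to library size, so that 1 unit is a doubling of signal. With 1 value per region, no sample, cell stage or treatment could be compared from this list. The authors' own comparisons of stage and treatment, published with the study, are not given here. No value in the list had a replicate error, and the depth of each sample was unknown. In such a mean, fewer cells with an open site and less opening in each cell cannot be told apart. Of markers of the labelled cell type, 8 of 11 osteogenic and mesenchymal genes had a region at a start, where 64.1% of all protein-coding genes did, with levels from 2.33 (Alpl) to 6.13 (Twist1), and Phex, Sost and Pdpn had none there. Of 7 markers of other cell types, Pecam1 (1.89) and Adipoq (2.96) had one, so that their levels overlapped those of the osteogenic markers at the low end, and Ptprc, Cdh5, Acan, Cdh1 and Myod1 did not.

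These enzymes share a chemistry with the prolyl hydroxylases that FG-4592 inhibits. Each active demethylase uses iron, molecular oxygen and 2-oxoglutarate, oxidises the methyl group and releases it as formaldehyde, or, in the TET enzymes, leaves the oxidised base in place. The family therefore meets oxygen sensing in 2 ways. Some members, such as Kdm6a and Kdm5a, lose activity when oxygen falls, while others, such as Kdm3a, Kdm4b and Kdm4c, are known target genes of the hypoxia-inducible factors (HIF). HIF binds the hypoxia response element (HRE), whose core reads ACGTG or GCGTG.

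HRE cores lay inside accessible regions of Kdm3a, Kdm4b, Kdm4c, Kdm5b, Kdm6b and Tet1, members whose transcription has been tied to hypoxia. Such cores were common, present in 72.3% of all regions at starts and 38.6% of those away from them. The stretches below hold the CACGTG palindrome, which contains the core on both strands, outside every exon of the gene in GENCODE M21 and RefSeq. They were picked, after the levels were seen, from regions at a start of the gene or among its strongest. Another 3 stretches that hold CACGTG outside exons are not shown, 1 in a weaker Kdm5b region (1.76), 1 in a weaker Tet1 region (2.64) and 1 in the Tet1 window at the start of Slc25a16. The stretches below were read from GRCm38 (mm10), 5′ to 3′ on the strand of the gene. Capitals mark each HRE core on either strand, with overlapping cores joined.
Kdm3a, chr6:71633428-71633590, minus strand: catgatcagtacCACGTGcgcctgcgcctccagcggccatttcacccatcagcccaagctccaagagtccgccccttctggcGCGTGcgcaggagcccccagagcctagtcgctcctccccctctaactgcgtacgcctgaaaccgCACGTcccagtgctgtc
Kdm4b, chr17:56325812-56325859, plus strand: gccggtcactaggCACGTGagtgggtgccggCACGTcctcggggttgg
Kdm4c, chr4:74251782-74251854, plus strand: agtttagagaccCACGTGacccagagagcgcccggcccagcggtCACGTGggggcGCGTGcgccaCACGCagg
Kdm5b, chr1:134556377-134556416, plus strand: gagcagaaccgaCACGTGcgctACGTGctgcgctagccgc
Kdm6b, chr11:69417703-69417734, minus strand: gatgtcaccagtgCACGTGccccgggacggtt
Kdm6b, chr11:69418909-69418940, minus strand: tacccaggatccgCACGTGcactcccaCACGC
Tet1, chr10:62886284-62886314, minus strand: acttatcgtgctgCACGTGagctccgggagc

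The Kdm3a stretch lay 523 to 685 bp upstream of the main start and held 3 cores. The Kdm4b stretch lay 232 to 279 bp upstream with 2 cores. The Kdm4c stretch lay 82 to 154 bp upstream with 4 cores, of which a pair were palindromes. By RefSeq the Kdm4c stretch also lay downstream of another start, at 74242497. The Kdm5b stretch was 3755 to 3794 bp upstream of the start, in a region of its own. The Kdm6b stretches lay upstream of the GENCODE start, between 4028 and 4059 bp and between 5234 and 5265 bp. By RefSeq the nearer one lay downstream of a start at 69418140, and both lay downstream of a start at 69420367. The Tet1 stretch lay 6270 to 6300 bp upstream of the main GENCODE start, but downstream of the Tet1 start at 62887324 that GENCODE and RefSeq share, so its side depends on the start used. A match says only that these letters were in open chromatin, since binding of HIF was not measured. CACGTG is also the E-box bound by MYC, USF and the circadian factors. It was present in 31.7% of the 60 member regions at starts (95% Wilson interval 21.3 to 44.2), against 17.2% of all 21537 regions at starts. Away from starts it was in 12.7% (8.07 to 19.4) of 134 member regions against 6.81% of all. All intervals given here are Wilson intervals that cover counting error alone. The median width was 1178 bp in the 48 regions at starts of the members and 775 bp in the 12 at starts of other genes, against 867 bp in all regions at starts, and away from starts it was 415 bp against 408 bp. CACGTG holds a CpG, and the median observed over expected CpG ratio was 0.75 in member regions at starts against 0.56 in all regions at starts. Their median GC was 60.1% against 56.8%. Away from starts these medians were 0.21 against 0.19, and 48.7% against 48.5%. The parts of width and base composition in these shares were not tested.

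Of the 194 regions, 48 (24.7%, 19.2 to 31.3) lay within 1000 bp of an annotated transcript start of the demethylase gene itself. Of these 48, 44 were at a start of a protein-coding transcript. A further 12 (6.19%) lay at the start of a different gene inside the 20-kb window, and 134 (69.1%, 62.3 to 75.2) lay away from any start. In the whole list 77.3% of regions lay away from starts. Of the 134 member regions away from starts, 82 were in introns, 39 were upstream and 13 touched an exon. The levels differed between these classes. The median was 5.00 log2 CPM at member starts (quartiles 3.84 and 6.01), 4.04 at starts of other genes and 2.24 away from starts (1.38 and 3.01), while in the whole list regions at starts had a median of 3.89 and regions away from them 1.89. Start regions were wider as well, with a median of 1178 bp against 415 bp. Per kb of width the medians still stood in that order, 4.64 at member starts and 3.30 away from starts.

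**Figure D1:**
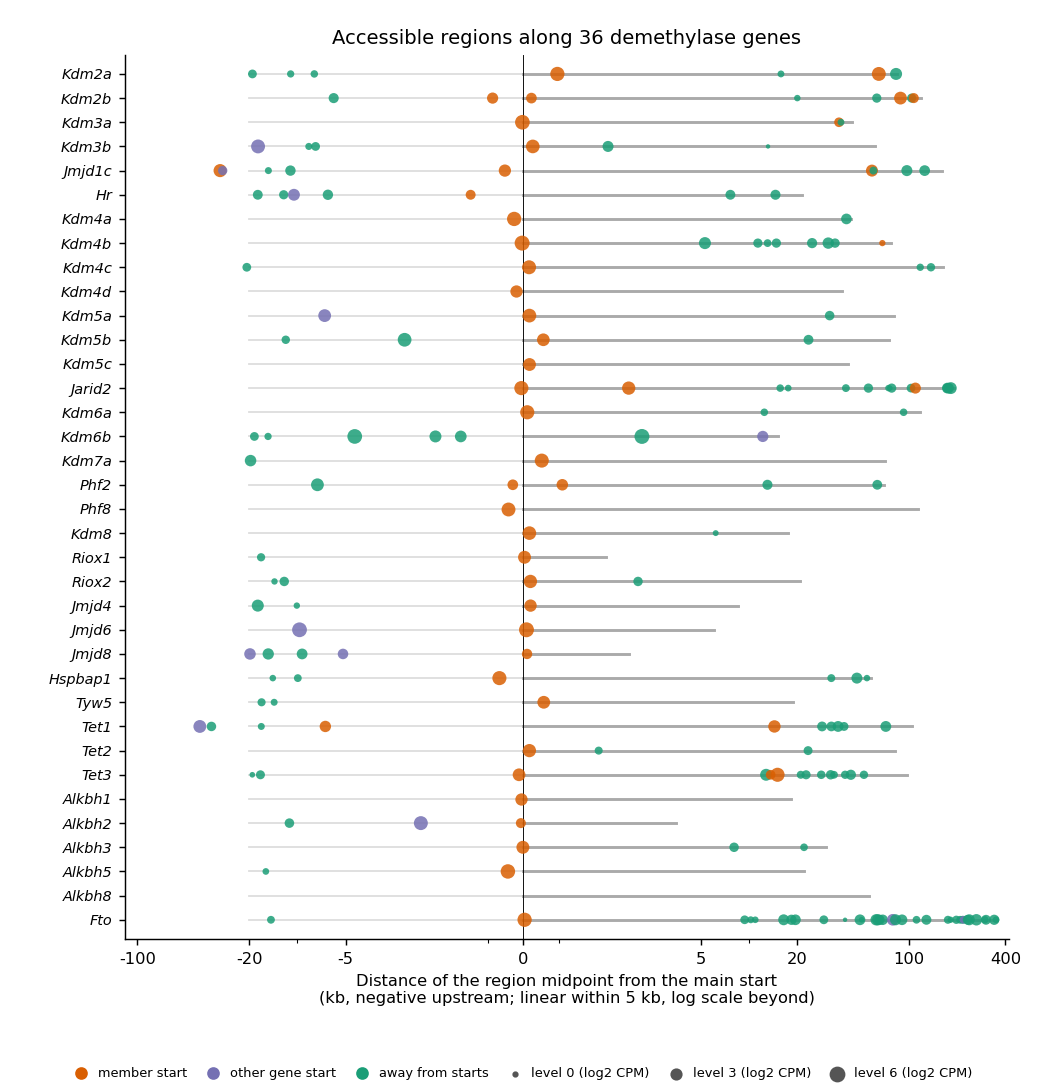
Accessible regions along the 36 genes, with the distance of each region's midpoint from the main annotated start in kb (linear within 5 kb, log scale beyond), colour for the kind of region and dot size for the level in log2 CPM. Large dots sat at or near 0 for most genes, while Kdm6b had its largest dots at 3338 bp inside the gene and 4742 bp upstream, and Alkbh8 had no dot.

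Nearly every demethylase gene had an open start. A region lay within 1000 bp of a transcript start in 34 of 36 members (94.4%, 81.9 to 98.5), against 64.1% of all 21938 protein-coding genes. The exceptions in GENCODE M21 were Kdm6b, the inducible H3K27 demethylase, and Alkbh8, a tRNA methyltransferase with an AlkB domain. Most members also had starts rich in CpG, the base step that marks the promoters of widely expressed genes. A CpG-rich start, defined as GC of at least 55% and an observed over expected CpG ratio of at least 0.6 within 500 bp of any annotated start of the gene, was found in 29 of 36 (80.6%, 65.0 to 90.2) against 46.0% of all. Among CpG-rich genes the gap was smaller, with 29 of 29 members open and 91.6% of all such genes. The 7 members without a CpG-rich start were Hr, Kdm4d, Kdm6b, Jmjd8, Alkbh1, Alkbh3 and Alkbh8, and 5 of these were open, against 40.6% of all genes of that kind. At least 1 region anywhere in the window was found for 35 of 36, against 79.5% of all.

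The level at the starts covered a wide range. The highest start region of each of the 34 genes had a median of 5.52 log2 CPM (quartiles 4.85 and 6.16) and ran from 2.70 to 6.97. The median was 5.03 for all protein-coding genes with an open start and 5.37 for the CpG-rich ones. In all, 21 of 34 members were above the overall median. Per kb of region the difference was smaller, 4.95 against 4.75, with 18 of 34 above, and the CpG-rich genes stood at 5.00.

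**Figure D2:**
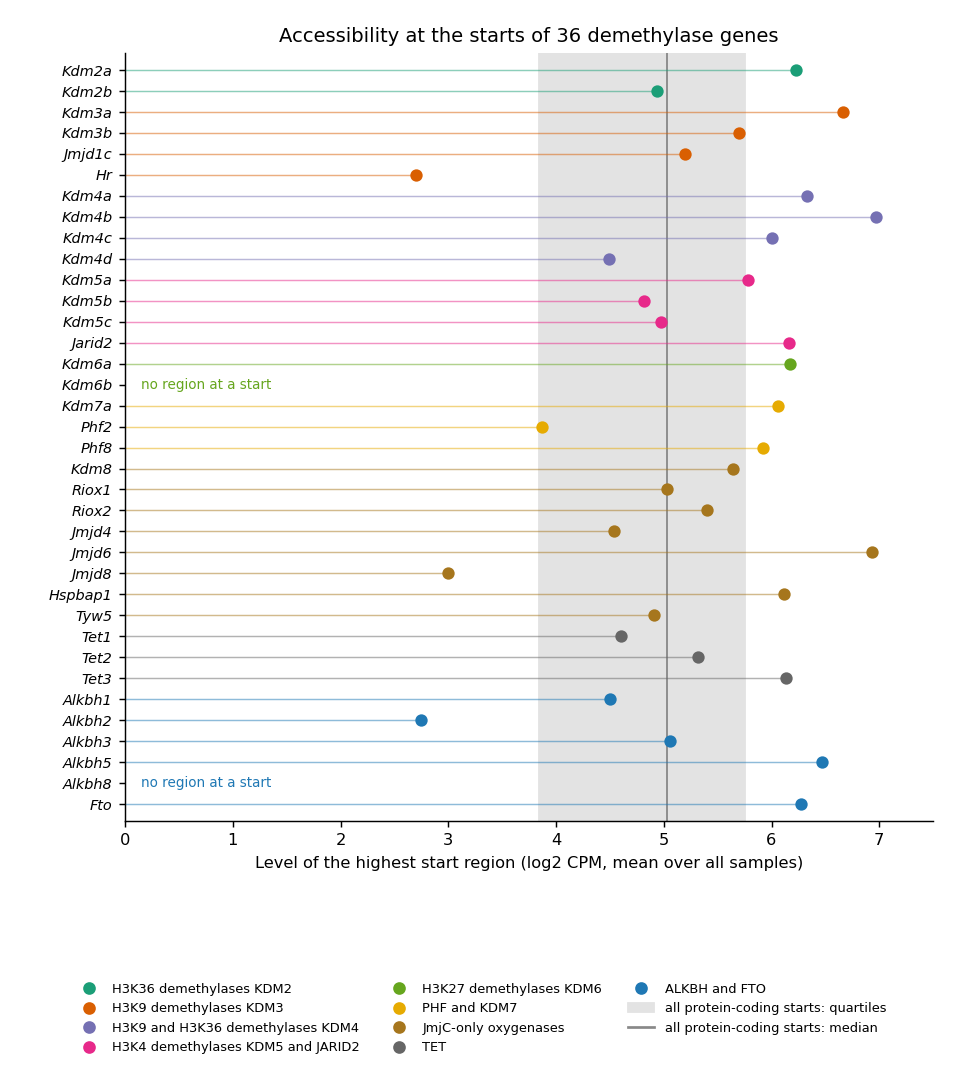
Level of the highest start region of each of the 36 genes in log2 CPM, coloured by subfamily, over the quartiles (grey band, 3.84 to 5.75) and median (line, 5.03) of all protein-coding genes with an open start. By GENCODE starts Kdm4b (6.97), Jmjd6 (6.93) and Kdm3a (6.66) were the highest and Hr (2.70), Alkbh2 (2.75) and Jmjd8 (3.00) the lowest. Kdm6b and Alkbh8 had no region at a GENCODE start. RefSeq also places Alkbh2 starts in a region of 5.98.

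The H3K9 demethylases of the KDM3 group held both a leader and the lowest start. Kdm3a, which removes mono- and dimethyl marks from H3K9 and is a classical HIF target, had 3 regions. Its start region (chr6:71632169-71633692, 1524 bp) reached 6.66 log2 CPM, above 95.9% of protein-coding genes with an open start, and held 7 HRE cores and 1 AP-1 site (TGACTCA or TGAGTCA, the motif of FOS and JUN). The other Kdm3a regions were at the far end of the gene. They touched exon 19 (chr6:71596152-71596765, 2.50) and exon 20 (chr6:71595167-71595620, 0.96). The exon 19 region counted as a member start only through a GENCODE transcript with a retained intron. Kdm3b stood at 5.70 at its start with 6 regions, and Jmjd1c at 5.20 with 9. Jmjd1c, whose demethylase activity has been disputed, was highest not at its main start (4.46) but at a start 30430 bp upstream, in a region shared with the neighbouring gene Reep3. Hr, the hairless corepressor known from hair follicle cycling, had 2.70 at a start (chr14:70554117-70554722). It had 7 regions in all, with none of them above 4.14, the value at the start of its neighbour Reep4. The GENCODE transcripts that start near the 2.70 region encode 1182 residues against 1211 for the main form. No region lay within 1000 bp of the main GENCODE start of Hr, 70555900.

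The KDM4 group removes trimethyl marks from H3K9 and H3K36. Kdm4b had the highest start of all members (chr17:56325471-56326645, 1175 bp, 6.97 log2 CPM), above 98.4% of open starts, and above 99.4% per kb, with 9 HRE cores. Intron 1 held 5 regions, the first 5291 bp from the start at 4.27 (chr17:56331076-56331689). The others in intron 1 stood at 2.24 (chr17:56337247-56337608), 1.40 (chr17:56339026-56339228), 2.27 (chr17:56340696-56341076) and 2.89 (chr17:56350580-56351090). Intron 5 held regions of 3.77 (chr17:56356739-56357893) and 2.33 (chr17:56360286-56360776), and a 200-bp region at exon 12 (chr17:56394033-56394232) stood at 0.68. Kdm4a followed with 6.33 and no HRE core at its start (chr4:118179469-118180351). Kdm4c reached 6.00 (chr4:74251326-74252873, 9 HRE cores) and was otherwise bare, with regions of 1.96 at 20721 bp upstream (chr4:74231047-74231383), 1.17 in intron 17 (chr4:74369184-74369459) and 1.73 in intron 19 (chr4:74388743-74389092). This made 4 regions over a gene of 163 kb, and 69.3% of genes of similar length had more. Kdm4d had 1 region (chr9:14500104-14501246), at 4.49, shared with the start of Cwc15. Kdm4a, Kdm4b and Kdm4c thus had starts between 6.00 and 6.97, while their region counts ran from 2 to 9.

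The KDM2 enzymes remove methyl marks from H3K36 and bind unmethylated CpG islands through a CXXC domain. Kdm2a stood at 6.23 at its main start (chr19:4396454-4398198) and at 5.94 in intron 12 (chr19:4332771-4334476), 64662 bp further in, where GENCODE places the start of a transcript for a shorter protein of 292 residues against 1161. Kdm2b showed the same layout with the order turned. Its intron 12 region (chr5:122899554-122900878, 88317 bp from the main start) had 4.94, and the pair of regions at the main start had 3.24 and 3.61. The transcript that starts in intron 12 encodes 776 residues against 1303 for the main form. Short forms of both enzymes, made from internal starts, are known to lack the JmjC domain and thus the oxygen-dependent part. Accessibility does not show how much of either form was made.

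The KDM5 group removes di- and trimethyl marks from H3K4, and Jarid2 is its inactive relative, a partner of Polycomb repressive complex 2. Start levels were 5.78 for Kdm5a, 4.82 for Kdm5b, 4.97 for Kdm5c and 6.16 for Jarid2 (chr13:44730095-44731444). Kdm5b departed from the usual pattern, because its highest region was not at a start. That region (chr1:134556306-134557358, 1053 bp) lay 3339 bp upstream at 5.78, above the start region (chr1:134560015-134561455, 4.82), and held 3 HRE cores, of which 2 are in the stretch printed above. Neither GENCODE M21 nor RefSeq places a start of the gene there. The remaining Kdm5b regions stood at 1.76 (chr1:134548074-134548615, 11827 bp upstream) and 2.65 (chr1:134583340-134583988, intron 1). Jarid2 had 15 regions, and its start region held the most HRE cores of any member region, 15 in 1350 bp. A second strong region of 5.36 lay 2966 bp downstream, in intron 2, where GENCODE starts a noncoding Jarid2 transcript.

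The H3K27 demethylases Kdm6a and Kdm6b stood in contrast. Kdm6a, an X-linked enzyme of the COMPASS complex, had a start at 6.17 (chrX:18161685-18163689) and weak regions elsewhere, 3 in all. Kdm6b had 7 regions over a gene of 15.2 kb, where 94.9% of 2381 genes of like length had fewer, and none of them within 1000 bp of its GENCODE start (chr11:69413675, minus strand). Its largest region (chr11:69408524-69412151), at 3338 bp into the gene over exon 2, was 3628 bp wide, the widest of all 94963 regions. It stood at 6.94, with 12 HRE cores and 4 AP-1 sites. The next (chr11:69417496-69419339, 1844 bp) lay 4742 bp upstream at 6.71, with 6 HRE cores, among them those printed above. Between this upstream region and the start were regions of 4.02 (chr11:69415265-69415604) and 4.23 (chr11:69415861-69416432), and farther away stood 3.64 over exons 15 to 19 (chr11:69401095-69401922), at the start of the noncoding Kdm6bos, 1.97 at 18578 bp upstream (chr11:69432089-69432417) and 1.14 at 15261 bp upstream (chr11:69428800-69429072). RefSeq places Kdm6b starts in other positions, including 69409629, 69416194 and 69418140, each inside or within 1000 bp of one of the 4 strongest of these regions. With RefSeq starts Kdm6b counts as open and 35 of 36 members did (97.2%), against 65.1% of 20484 protein-coding genes. The missing start of Kdm6b therefore depended on the annotation used.

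The PHF and KDM7 demethylases, which pair a PHD finger that reads methylated H3K4 with a JmjC domain, had starts at 6.06 (Kdm7a, chr6:39205026-39207513, 2488 bp wide), 5.92 (Phf8) and 3.87 (Phf2, chr13:48869377-48870665). As with Kdm5b, the strongest Phf2 region lay upstream, at 7496 bp from the start (chr13:48878202-48879029), with 4.91 and 4 HRE cores. Phf8 had 1 region over 113 kb. The X-linked members Kdm5c (4.97), Kdm6a (6.17) and Phf8 (5.92) were all above the median of 4.58 for the 390 X-linked genes with an open start. The X chromosome had 9.08 regions per Mb against 37.9 on the autosomes, and Kdm5c, Kdm6a and Phf8 had 1, 3 and 1 regions. Kdm5d and Uty, the Y-linked relatives of Kdm5c and Kdm6a, stood at 2.41 and 3.83 at their starts.

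The other JmjC oxygenases are mostly hydroxylases of proteins or RNA. Jmjd6, a lysyl hydroxylase of splicing factors, led them at 6.93 (98.1% of open starts were lower), in a region (chr11:116842521-116844197) that also lies at the start of Mettl23. A region 9703 bp upstream of it, at the starts of Mfsd11 and Srsf2 (chr11:116852159-116854146), stood at 6.78. Hspbap1 stood at 6.12 (chr16:35768679-35770727), Kdm8 at 5.64, the ribosomal oxygenases Riox2 and Riox1 at 5.40 and 5.03, Tyw5, which hydroxylates a modified base of tRNA, at 4.91, Jmjd4, which hydroxylates a translation termination factor, at 4.54, and Jmjd8 at 3.00. Riox2 and Hspbap1 lie on chromosome 16, where the median open start was 5.60 and there were 59.6 regions per Mb against 37.0 on the other autosomes. The part of this difference between chromosomes in the values of Riox2 and Hspbap1 was not tested. The Jmjd8 start region was narrow (chr17:25828794-25829152, 359 bp), and per kb it stood at 4.48, above 39.7% of open starts rather than 17.0%.

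The TET genes were open at several places each. Tet2 was simplest, with 5.32 over its start in a 2099-bp region (chr3:133543147-133545245). Tet3 had 14 regions, and 87.8% of the genes closest to it in length had fewer. Its main start stood at 4.87 and a start 15044 bp inside, over exon 3, at 6.13 (chr6:83440556-83442141). The coding transcript that starts there gives a protein of 1668 residues against 1803. Tet1 had no region at its main GENCODE start. The 10 regions counted for it began with the start region of the neighbour Slc25a16 at 4.98 (chr10:62920062-62921449), which the window reached because the annotated gene extends upstream of its main start. Regions of 2.41 (chr10:62914239-62914739) and 1.00 (chr10:62896671-62896995) followed, and 3.75 stood at a Tet1 start 6689 bp upstream (chr10:62885888-62887519, 6 HRE cores and 2 AP-1 sites). The highest of its own was 4.60 in intron 1, 14388 bp downstream (chr10:62865144-62866108), where a noncoding Tet1 transcript starts. Intron 2 held 4 regions, of 2.64 (chr10:62851035-62851876), 2.57 (chr10:62847013-62847712), 3.35 (chr10:62843675-62844410) and 2.03 (chr10:62840641-62840997), and the last exon 1 of 3.37 (chr10:62808025-62808978).

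Of the nucleic acid demethylases of the AlkB type, Alkbh5 and Fto, which remove N6-methyladenosine from RNA, had the strongest starts, 6.47 (chr11:60536496-60538595, 10 HRE cores) and 6.27. Alkbh3, which repairs alkylated bases, stood at 5.06, Alkbh1 at 4.50 and Alkbh2 at 2.75. Alkbh2 repairs DNA, and its start region was narrow (chr5:114128086-114128403, 318 bp, 4.41 per kb). A region 2882 bp upstream, at the start of the uracil glycosylase Ung, stood at 5.98 with 9 HRE cores. RefSeq also places Alkbh2 starts there, at 114131232 and 114131233, so the low start level of Alkbh2 depended on the annotation used. Alkbh8 (chr9:3335140-3391154) had no region. The nearest ones were 73881 bp to the left of the gene and 12077 bp to its right, and 91.8% of 1728 genes of similar length had at least 1.

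Some starts were shared with a neighbour. In 9 of 34 members (26.5%, 14.6 to 43.1) the highest start region also lay at a start of another protein-coding gene, against 19.8% of all protein-coding genes with an open start, a share inside that interval. The pairs were Jmjd1c with Reep3, Kdm4d with Cwc15, Kdm5a with Ccdc77, Jmjd4 with Snap47, Jmjd6 with Mettl23, Hspbap1 with Dirc2, Tyw5 with Maip1, Alkbh1 with Slirp and Fto with Rpgrip1l. For these genes the level belongs to both. At Kdm4c, Kdm7a, Phf2, Riox1, Tet2 and Tet3 the highest start region also lay at a start of a noncoding gene.

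The counts of regions were set against gene length. Members had 0 to 34 regions with a median of 3.00, the same as all protein-coding genes, although the members were longer (median 57.1 kb against 17.4 kb). Set against protein-coding genes within 20% of its own length, the median member had more regions than 49.3% of them. In all, 17 members had more regions than the median gene of their length, 4 had as many and 15 fewer. The richest for their length were Kdm6b (7), Jmjd8 (5), Hr (7), Fto (34) and Tet3 (14), and the poorest were Alkbh8 (0), Phf8 (1), Kdm5c (1), Kdm4d (1) and Alkbh1 (1). For short genes the window of 20 kb holds neighbours. Of the 5 regions of Jmjd8, those at 3.87 and 3.13 lay at the starts of Fbxl16 and Wdr24. The other counts were 15 for Jarid2, 10 for Tet1, 9 for Kdm4b and Jmjd1c, 8 for Kdm2b, 7 for Kdm2a, 6 for Kdm3b and Hspbap1, 5 for Phf2, 4 for Kdm4c, Kdm5b and Riox2, 3 for Kdm3a, Kdm5a, Kdm6a, Jmjd4, Tyw5, Tet2, Alkbh2 and Alkbh3, and 2 for Kdm4a, Kdm7a, Kdm8, Riox1, Jmjd6 and Alkbh5.

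**Figure D3:**
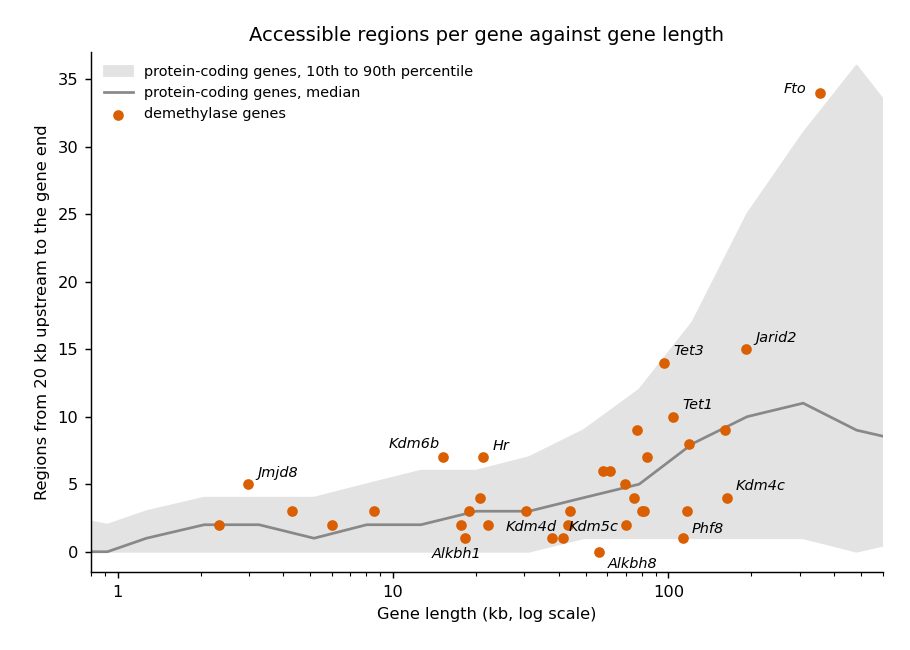
Regions per gene, from 20 kb upstream to the gene end, against gene length in kb (log scale) for the 36 genes, over the median (line) and the 10th to 90th percentile (grey) of protein-coding genes of each length. Kdm6b (7), Jmjd8 (5), Hr (7) and Fto (34) lay just above the band, and Kdm4c (4) and Phf8 (1) lay low in it for genes over 100 kb.

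Fto alone gave 34 of the 194 regions. It spans 355 kb, its first intron is known to hold long-range enhancers of the homeobox genes Irx3 and Irx5, and 90.3% of genes of similar length had fewer regions. Intron 1 held 16 regions with levels from -0.37 to 3.95 and intron 8 held 9, from 0.86 to 3.82. Intron 7 held 4, from 0.68 to 1.68. The highest away from any start was the 3.82 in intron 8 (chr8:91576534-91577383). AP-1 sites were found in 10 of the 34 regions, where 22.1% of all regions had one, and HRE cores in 17, where 46.2% of all had one. Without Fto, the share of member regions away from starts was 64.4% of 160, the median level was 2.78 against 2.74 with it, and the HRE share was 57.5%. The median and the HRE share were thus close with and without Fto.

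Regions away from starts were weaker, with a few exceptions. The highest such regions belonged to Kdm6b (6.94 and 6.71, both at starts by RefSeq), Kdm5b (5.78), Phf2 (4.91), Jmjd4 (chr11:59431760-59432944, 4.28, at 17693 bp upstream) and, at 4.27 each, to Kdm2a in its last exon and Kdm4b in intron 1. The weakest regions of all members were -0.47 in intron 1 of Kdm3b, -0.37 and 0.42 in intron 1 of Fto, 0.30 in intron 2 of Jarid2 and 0.43 upstream of Tet3. Of the 35 members with any region, 27 had their highest at a start of their own. The widest regions after that of Kdm6b were the start regions of Kdm7a (2488 bp), Alkbh5 (2100 bp), Tet2 (2099 bp) and Hspbap1 (2049 bp).

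HRE cores were counted in every region. They were present in 109 of 194 member regions (56.2%, 49.2 to 63.0) against 46.2% of all regions. At starts the share was 83.3% of 60 (72.0 to 90.7) against 72.3%, and away from starts 44.0% of 134 (35.9 to 52.5) against 38.6%. Among start regions over 1000 bp, 36 of 38 member regions had a core (94.7%) and 95.2% of all such regions did. For start regions over 500 and up to 1000 bp the share was lower in members, 66.7% of 15 against 74.9%. Away from starts the shares were 25.8% against 22.6% for widths up to 300 bp, 30.4% against 33.5% over 300 and up to 500 bp, 60.4% against 51.2% over 500 and up to 1000 bp, and 88.9% of 9 against 71.3% over 1000 bp. The remaining 7 member regions at starts were up to 500 bp wide. In the central 200 bp of each region, a fixed width, the core was in 29.4% of member regions against 24.2% of all. This share pools regions at starts, 30.9% of member regions and 22.7% of all, with regions away from them. In each of the 8 classes of kind and width the interval of the members held the share of the whole list. The longer RCGTGC (R is A or G) was split by kind only. At starts it was in 63.3% of 60 member regions (50.7 to 74.4) against 41.6%, a share outside that interval. Away from starts RCGTGC was in 16.4% (11.1 to 23.6) against 11.8%. The parts of width and base composition in the RCGTGC shares were not tested. The number of cores per kb was higher in members. In the highest start region of each gene it was 4.02 per kb, and 3.81 without Jarid2, against 3.16 in all, and among CpG-rich starts 4.24 against 3.48. By region the median was 3.73 per kb (quartiles 2.69 and 4.59) against 2.82 (1.48 and 4.31), and 24 of 34 members were above the latter. Away from starts there were 1.53 cores per kb, or 1.36 without Kdm6b, against 1.16. No test was run on these, since the regions are not replicates and the members were chosen with earlier results known.

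**Figure D4:**
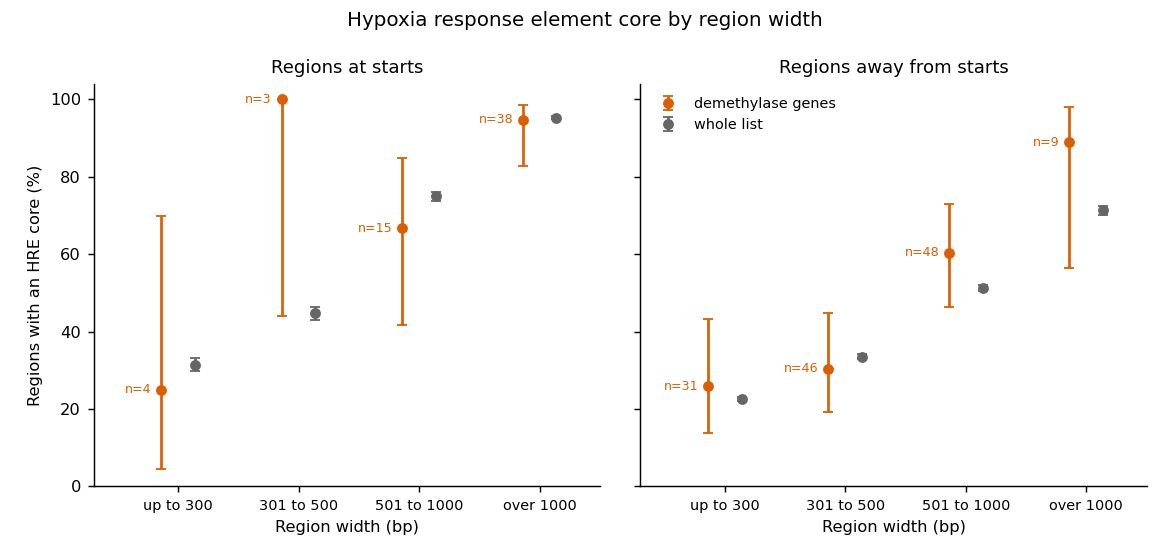
Percent of regions with at least 1 HRE core by region width, for regions at starts (left) and away from starts (right), in demethylase genes (orange, n beside each point) and in the whole list (grey), with 95% Wilson intervals. In the whole list the share was higher in each wider class, from 31.4% to 95.2% at starts and from 22.6% to 71.3% away from them, and every member interval held it.

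AP-1 sites, bound by FOS and JUN proteins at many enhancers, were about as frequent in members as elsewhere. They were in 42 of 194 regions (21.6%) against 22.1% of all, in 12 of 60 regions at starts against 16.5% of all such regions, and in 22.4% against 23.7% away from starts. By group, the regions away from starts with a site were 12 of 35 in the Fto and AlkB genes, 5 of 20 in the TET genes, 3 of 16 in KDM5 and Jarid2, 3 of 9 in KDM2, 2 of 15 in KDM3, 2 of 11 in KDM4, 1 of 16 in the other JmjC oxygenases, 1 of 8 in KDM6 and 1 of 4 in the PHF and KDM7 genes. The 1 in KDM6 was the wide Kdm6b region, which had 4 sites.

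The core promoter motifs were searched in the RefSeq promoters (GRCm38.p6), windows of 300 bases that reach from upstream of a start to just past it. These matched 30 of 36 members, but not Kdm2a, Kdm3b, Kdm4b, Kdm5a, Kdm6b and Hr. In the 28 members whose RefSeq start lay inside a region, the HRE core was found in 18 (64.3%) against 68.0% of 9477 such genes, GGGCGG (SP1) in 71.4% against 71.1%, CCAAT in 42.9% against 40.4%, CCGGAAG (ETS) in 25.0% against 20.2%, and TATAAA in 7.14% against 6.67%. CACGTG was in 3 of them, Hspbap1, Kdm4c and Kdm6a (10.7% against 11.4%). The NRF1 motif was in 21.4% against 15.5%, and the YY1 motif was in 2 members, Alkbh1 and Phf8 (7.14% against 1.83%). Both strands were searched, and the E-box CACGTG overlaps the HRE core by its letters. In these windows next to the start the share of matched members with an HRE core was not above that of the other genes. The unmatched Kdm2a, Kdm3b, Kdm4b and Kdm5a had 8, 4, 9 and 8 HRE cores in their wider start regions, and Hr had 0.

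The enzymes that add the same marks give a comparison. The histone, DNA and RNA methyltransferases, which use no oxygen, had an open start in 27 of 27, with a median level of 5.29 (2.61 to 6.39). Other oxygenases and the flavin-dependent histone demethylases had one in 16 of 18, with a median of 5.17 (2.41 to 7.03), the exceptions being Ogfod3 and Bbox1. Among them, the HIF prolyl hydroxylases that FG-4592 inhibits stood at 4.72 (Egln1), 5.58 (Egln2) and 2.42 (Egln3), and Hif1an, the asparaginyl hydroxylase of HIF, at 5.05. Beside these, the demethylases had 34 of 36 and a median of 5.52. Per kb the 3 medians were 4.95 for the demethylases, 4.84 for the methyltransferases and 5.03 for the other oxygenases, so their order was not the same on both scales.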

How the data were processed

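ATAC-seq reads of the 11 samples had been processed by the authors with Trim Galore, Bowtie2 (to mm10) and Picard 2.17.8, and peaks called with MACS2 2.2.7.1 were merged, with ENCODE blacklisted regions removed. Tn5 cuts were counted with pyDNase, regions needed at least 10 cuts in more than 1 sample, and 1 library was left out for quality. Whether reads were shifted for the Tn5 offset is not given in the sources used here. The deposited column had no label and was read as log2 CPM, the mean over all samples after TMM scaling. The unit was inferred from the values, since 2 to the power of each value summed to 1012761 and 460 values were below 0. The mean over all samples and the TMM scaling were inferred from the authors' methods. As no value per sample was used, no samples could be grouped or tested, and depth was unknown.

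Regions were linked to genes with GENCODE M21, and sequence was read from GRCm38 with Python 3.11.15, pandas 2.3.3 and numpy 2.4.6. No region ran past a chromosome end. Overlaps, start links and motif counts were tested on simulated data. A start link needed at most 1000 bp between a region and a transcript start. Genes of similar length were those within 20%. Level per kb is the level minus log2 of the width in kb. Wilson intervals (95%) used scipy 1.17.1. The rule for named regions took the highest start of each subfamily, the 5 highest and 5 lowest starts, the 5 widest and 5 strongest regions, the strongest ones away from starts, and all regions at 6 genes tied to hypoxia (Kdm3a, Kdm4b, Kdm4c, Kdm5b, Kdm6b, Tet1). The intron 12 regions of Kdm2a and Kdm2b and the intron 8 region of Fto fall outside it and were named after their values were seen. The members and lists were chosen with earlier results of these data known. Of 19 other oxygenases listed, 18 matched the annotation by symbol. Alternatives were other windows, widths, level minimums, start definitions and motif spellings.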

Additional observations from a re-analysis of the deposited data

How the results depend on the processing

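Of 39 alternatives run over these summaries, 31 stayed within the margin of the value reported (a count within 1.5 times, or a share or median within its interval or quartiles) and 8 did not. The count of 194 regions was 110 with regions of at least 500 bp and 295 with 50 kb upstream, where the share of regions at starts of other genes was 13.9%. The share with an HRE core was 75.5% in regions of at least 500 bp (all regions 66.3%) and 39.7% for ACGTG alone (27.1%). It was 30.9% for RCGTGC (18.6%) and 29.4% in the central 200 bp (24.2%). Members were above all regions each time, but these shares pool regions at starts with the others. Regions at starts held the core more often and made up 30.9% of member regions against 22.7% of all. The AP-1 share was 12.4% in the central 200 bp (12.1%). Starts from RefSeq, an alternative added after the data were seen, gave 35 open members and a median level of 5.70. No paired analysis was possible because each region carries 1 value, read as a mean of the 11 samples. For the same reason no replicate could be left out. Depth could not be read from the list, so how much signal a gene without a region, such as Alkbh8, could have had is unknown.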
